A study of Rattus norvegicus with 6 samples.

Results

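Genes of the meninges and head mesenchyme are described here across 6 fetal forebrain libraries of Wistar rats. The list named 6 genes by Ensembl identifier and symbol, and 5 of them were among the 17581 genes of the deposited count table: Col1a1, Col3a1, Dcn, Igf2 and Alx4. The identifier listed for Col1a2 had no row in the table used, and that gene was not analysed here. All 5 passed the filter on low counts, which left 13617 tested genes. The genes were selected on what they encode, with the read counts of these same libraries by dose already known. Their levels by dose and by library are therefore a description. How many of them passed a fit over all genes is given only beside the share of all genes that did.

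Control dams received the vehicle alone, 0 µg of FM550 per day, and high-dose dams received 1000 µg per day, near 3.3 mg per kg body weight, by mouth on a food pellet. FM550 is a flame retardant sold as a blend of organophosphates with brominated compounds. Doses ran daily from gestational day 9 to day 18, were set by an average weight and not by each dam's own, and the 3 fetuses of each group were taken on day 18, 4 hours after the last dose. All 6 libraries are labelled male. The whole heads were frozen and cut on a cryostat before the forebrain was dissected out, so skull, skin and the coverings of the brain lay in the same frozen block. The labels do not say whether the fetuses of a group came from different dams, and the spread between libraries may be partly technical.

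The meninges are the connective tissue sheets around the brain. They and the mesenchyme that forms the skull and face derive from neural crest and mesoderm. Fibroblasts of these tissues secrete fibrillar collagens and the small proteoglycans that bind them, which neurons and their progenitors make little of. Collagens and decorin are made by fibroblasts around blood vessels and throughout the body as well, so they mark connective tissue and not the meninges alone. The label of the list was not checked further: no other gene of the table was paired with a symbol, so markers of neurons, meninges, vessels, cartilage, muscle or skin were not used here.

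Library totals ran from 10525138 to 27100394 counts, and both of these extremes were high-dose libraries. On the first principal component of log2 CPM, with 38.8% of the variance, high-dose replicate 2 stood apart at 35.9, and the other libraries lay between -23.6 and 8.99. CPM expresses a gene's counts relative to a common library size, here on totals scaled by the TMM method, which levels libraries over most genes.

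Together the 5 genes took a larger share of every control library than of any high-dose library. The share was 0.182%, 0.282% and 0.0971% of all counts in control replicates 1, 2 and 3, and 0.0581%, 0.0335% and 0.0503% in high-dose replicates 1, 2 and 3. The 95% Wilson intervals of these shares, which cover counting error only, did not overlap between any 2 libraries. Control replicate 2 was the highest and high-dose replicate 2 the lowest. In this summed share, of which Col1a1 made up 36.5% to 67.2% in controls, the controls differed among themselves more than the high-dose libraries did. Gene by gene, Col1a1 and Alx4 were more spread among controls and Dcn was about equal. Col3a1 and Igf2 were more spread among high-dose libraries. In bulk tissue, fewer cells of a type and less RNA per cell cannot be told apart.

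For each of the 5 genes, all 3 high-dose values lay below all 3 control values. Of all tested genes, 6.52% had this arrangement in the same direction. With edgeR's quasi-likelihood test over all genes, 0 of the 5 passed an adjusted p of 0.05, where 0.00734% of tested genes were lower and passed. At an unadjusted p under 0.05 the count was 5 of 5, against 4.33% of tested genes. limma-voom also passed 0 of 5 at an adjusted p of 0.05, against 0.00734% of tested genes. At an adjusted p under 0.1, 3 of the 5 were past the threshold in edgeR (Col3a1, Dcn and Igf2), against 0.33% of tested genes. DESeq2 passed 4 of the 5 at an adjusted p of 0.05, all except Alx4, against 0.902% of the genes it tested. These counts come from the contrast that was known when the list was made, and nothing is read from them. The median fitted log2 fold change, high dose against control, was -1.33 over the 5 genes and 0.00 over all tested genes. That median is the value of Alx4, which rests on few reads. The other 4 genes ran from -2.91 for Col1a1 to -0.88 for Igf2.

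**Figure D1:**
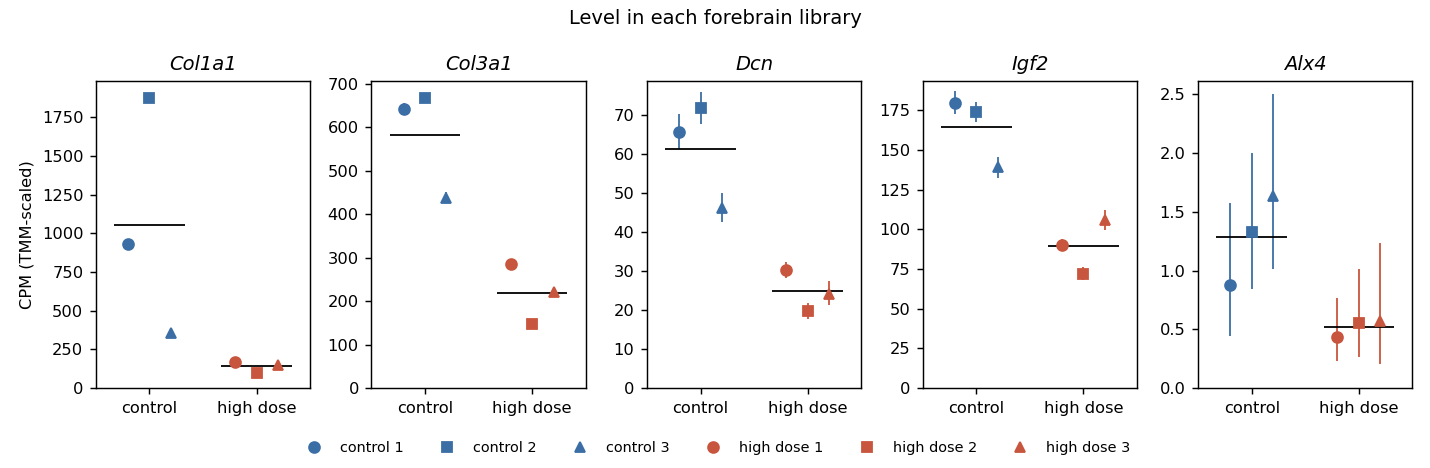
Level of the 5 genes in each library, in TMM-scaled CPM (y axis, linear from 0, its own scale in each panel), for 3 control and 3 high-dose libraries on the x axis. Points are single libraries with 95% Poisson intervals of the count, and black lines are group means. In each panel the 3 high-dose points lie below the 3 control points, and Col1a1 in control replicate 2, at 1875 CPM, is far above the other controls.

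Fibrillar collagens came first by spread. Col1a1 (ENSRNOG00000003897) encodes the alpha 1 chain of type I collagen, the main fibre of bone, skin and dura. It was at 931, 1875 and 359 CPM in control replicates 1, 2 and 3, resting on 11624, 32342 and 4615 reads. In high-dose replicates 1, 2 and 3 it was at 170, 100.5 and 149 CPM, from 4653, 1822 and 1579 reads. The controls were thus spread 5.22-fold from lowest to highest and the high-dose libraries 1.70-fold. The lowest control was still 2.11 times the highest high-dose value. The group means were 1055 ± 765 CPM in controls and 140.1 ± 35.9 CPM at the high dose (SD, n = 3 each), and the fit put the log2 fold change at -2.91 (standard error 0.52).

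Control replicate 2 set a large part of the size of that difference. Without it the fitted log2 fold change of Col1a1 was -2.20, or 4.61-fold instead of 7.53-fold. Without control replicate 3, the control nearest to the high-dose libraries, it was -3.32, or 10.01-fold. Leaving out any other single library gave values between -3.08 and -2.72.

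Col3a1 (ENSRNOG00000003357) encodes type III collagen, the thinner fibre of loose connective tissue and vessel walls. It was at 642, 667 and 438 CPM in control replicates 1, 2 and 3. In high-dose replicates 1, 2 and 3 it was at 285, 148 and 221 CPM, from 7777, 2678 and 2336 reads. Here control replicates 1 and 2 were close together, 1.04-fold apart, and control replicate 3 was the low control. The means were 582 ± 126 and 218 ± 68.6 CPM (SD, n = 3 each), a fitted log2 fold change of -1.42 (standard error 0.24).

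Dcn (ENSRNOG00000004554) encodes decorin, a small leucine-rich proteoglycan that binds collagen fibrils and regulates their assembly. Its level was 65.5, 71.6 and 46.2 CPM in control replicates 1, 2 and 3 and 30.3, 19.8 and 24.2 CPM in high-dose replicates 1, 2 and 3. The order of the libraries was the same as for Col1a1 and Col3a1, with control replicate 2 highest and high-dose replicate 2 lowest. The step between control replicates 2 and 1 was within counting error for Dcn, at 1.09-fold with a 95% interval of 1.00 to 1.20. The means were 61.1 ± 13.3 and 24.8 ± 5.29 CPM (SD, n = 3 each), and the fitted log2 fold change was -1.30 (standard error 0.20).

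Igf2 (ENSRNOG00000020369) encodes insulin-like growth factor 2, an imprinted fetal growth factor that the meninges, the choroid plexus and many mesodermal tissues secrete. It has several start sites, and the count per gene adds up reads from all of them, so its difference cannot be assigned to a start. RefSeq's table of sequences before gene starts (build GRCr8) held 2 windows for Igf2 and none for the other 4 genes of the count table. Both windows lie on the minus strand of chromosome 1, and the 250 bases before each start are printed 5′ to 3′ since no count separates them. Capitals mark GGGCGG, the GC box that Sp1-type factors recognise, searched as GGGCGG and as CCGCCC on the printed strand.

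Igf2 window 1, chr1:207253981-207254230: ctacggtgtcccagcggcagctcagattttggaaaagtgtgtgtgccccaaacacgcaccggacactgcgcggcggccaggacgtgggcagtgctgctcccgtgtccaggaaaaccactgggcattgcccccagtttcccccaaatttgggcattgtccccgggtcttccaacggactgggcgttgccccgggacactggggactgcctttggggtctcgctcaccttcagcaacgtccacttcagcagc
Igf2 window 2, chr1:207250476-207250725: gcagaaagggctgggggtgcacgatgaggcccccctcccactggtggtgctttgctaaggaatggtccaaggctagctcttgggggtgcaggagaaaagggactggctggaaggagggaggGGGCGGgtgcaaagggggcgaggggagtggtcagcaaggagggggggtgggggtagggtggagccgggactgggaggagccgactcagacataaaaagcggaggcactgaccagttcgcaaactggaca

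The second window held 1 match and the first 0, and 30.5% of all 33469 windows cut the same way held at least 1. A match is only a run of letters and does not show that a factor binds there.

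The spread of Igf2 was narrower than that of the matrix genes. It was at 179.7, 173.8 and 138.9 CPM in control replicates 1, 2 and 3 and at 90.3, 71.98 and 105.8 CPM in high-dose replicates 1, 2 and 3. Control replicates 1 and 2 did not differ beyond counting error (1.03-fold, 95% interval 0.978 to 1.09). High-dose replicate 3, not replicate 1, was the highest of its group, which sets the order of Igf2 apart from that of Col1a1, Col3a1 and Dcn. The means were 164 ± 22.1 and 89.4 ± 16.9 CPM (SD, n = 3 each), a fitted log2 fold change of -0.88 (standard error 0.15).

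Alx4 (ENSRNOG00000000008) encodes a homeobox transcription factor of the skull and facial mesenchyme. It was barely detected, on 11, 23 and 21 reads in control replicates 1, 2 and 3 and 12, 10 and 6 in high-dose replicates 1, 2 and 3. In CPM these are 0.881, 1.33 and 1.64 in controls and 0.439, 0.552 and 0.568 at the high dose. No step between neighbouring libraries exceeded counting error, including the step of 1.55-fold between the lowest control and the highest high-dose library (95% interval 0.526 to 5.11). The fitted log2 fold change was -1.33 (standard error 0.37). Unlike the other 4 genes, Alx4 was highest in control replicate 3, and its order cannot be resolved at this depth.

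**Figure D2:**
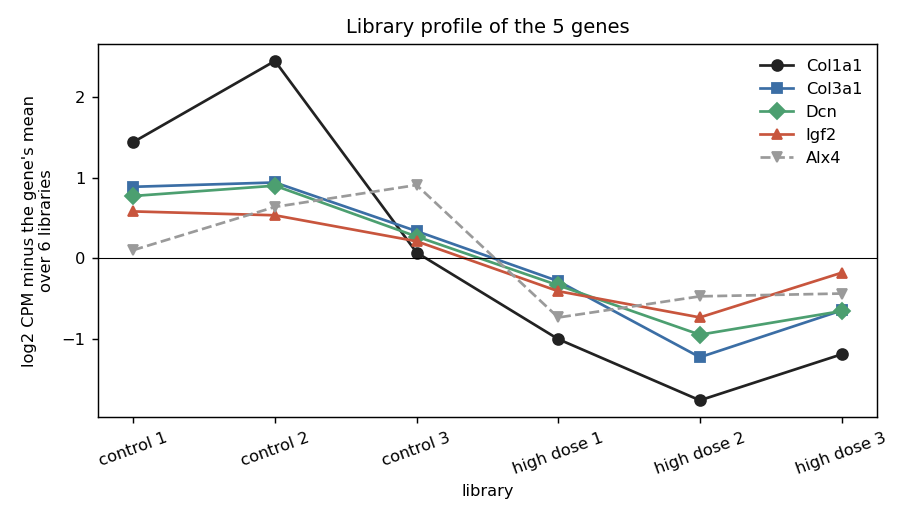
Log2 CPM of each gene minus its mean over the 6 libraries (y axis), by library (x axis). Each point is 1 library, and lines only join the points of a gene. Col3a1 and Dcn nearly coincide except in high-dose replicate 2 (-1.23 and -0.95), while Col1a1 runs from 2.45 in control replicate 2 to -1.77 in high-dose replicate 2.

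The spread of these genes over the 6 libraries was set beside that of other genes. For each of these genes the highest library was a control and the lowest a high-dose library. Their spread thus includes the dose difference known when the list was made, and their ranks are a description. The highest library exceeded the lowest 18.7-fold for Col1a1, 4.51-fold for Col3a1, 3.63-fold for Dcn and 2.50-fold for Igf2. The median over the 9754 tested genes with a mean of at least 10 CPM was 1.25-fold, and 99% of them were below 2.87-fold. Including the gene itself, 6 of the 9754 were as widely spread as Col1a1, 31 as Col3a1, 55 as Dcn and 167 as Igf2. Alx4, at 3.72-fold, rests on few counts (95% interval 1.75 to 8.30), and 3.29% of all tested genes were at least as spread.

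**Figure D3:**
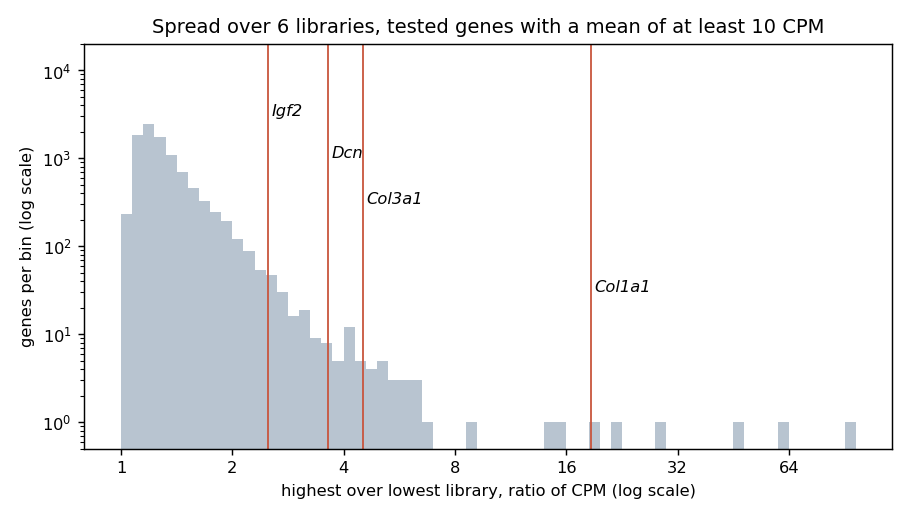
Number of genes (y axis, log scale) by the ratio of the highest to the lowest library in CPM (x axis, log scale), for the 9754 tested genes with a mean of at least 10 CPM. Vertical lines mark Igf2 at 2.50, Dcn at 3.63, Col3a1 at 4.51 and Col1a1 at 18.7, all in the right tail of the distribution. Their ratios include the dose difference that was known when the genes were chosen.

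Part of that spread was within a dose group. Among controls alone, the highest value was 1.52 times the lowest for Col3a1, 1.55 times for Dcn and 1.29 times for Igf2, where the median of all tested genes was 1.20 and 95% of them were below 2.09. Among high-dose libraries it was 1.93, 1.53 and 1.47 times, against a median of 1.22 and a 95% limit of 2.25. Within a dose, then, Col3a1, Dcn and Igf2 were above the median spread and below the 95% limit of all tested genes. Col1a1 was past that limit in controls, at 5.22, and below it at the high dose, at 1.70. All tested genes include those under 10 CPM, and no within-dose limit was computed for genes of at least 10 CPM alone. Over 6 libraries the 95% limit was 1.97 for genes of at least 10 CPM, against 3.13 for all tested genes.

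Ratios between genes inside a library do not depend on library size or scaling, and they showed which genes kept a fixed proportion. Dcn counts per Col3a1 count were 0.102, 0.107 and 0.105 in control replicates 1, 2 and 3, and 0.106, 0.134 and 0.110 in high-dose replicates 1, 2 and 3. High-dose replicate 2 stood highest, with an exact 95% interval of 0.119 to 0.149 that overlapped the interval of high-dose replicate 3 and of no other library. Across the other 5 libraries the intervals all overlapped, while the level of Col3a1 itself differed 3.02-fold between the highest and lowest of them.

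Col1a1 did not keep such a proportion. Its counts per Col3a1 count were 1.45, 2.81 and 0.820 in control replicates 1, 2 and 3, and 0.598, 0.680 and 0.676 in high-dose replicates 1, 2 and 3. The 3 high-dose values were close together and the 3 controls were spread 3.43-fold, with no overlap between the groups. The means were 1.69 ± 1.02 in controls and 0.652 ± 0.0462 at the high dose (SD, n = 3 each). Col1a1 made up 51.2%, 67.2% and 36.5% of the counts of the 5 genes in control replicates 1, 2 and 3, and between 29.5% and 29.8% in the high-dose libraries.

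Igf2 shifted the other way against Col3a1. Its counts per Col3a1 count were 0.280, 0.261 and 0.317 in control replicates 1, 2 and 3 and 0.317, 0.487 and 0.479 in high-dose replicates 1, 2 and 3. Control replicate 3 and high-dose replicate 1 had nearly the same proportion, with overlapping intervals (0.300 to 0.334 and 0.303 to 0.332). The 2 other high-dose libraries, where Col3a1 was lowest, had the largest proportion of Igf2.

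**Figure D4:**
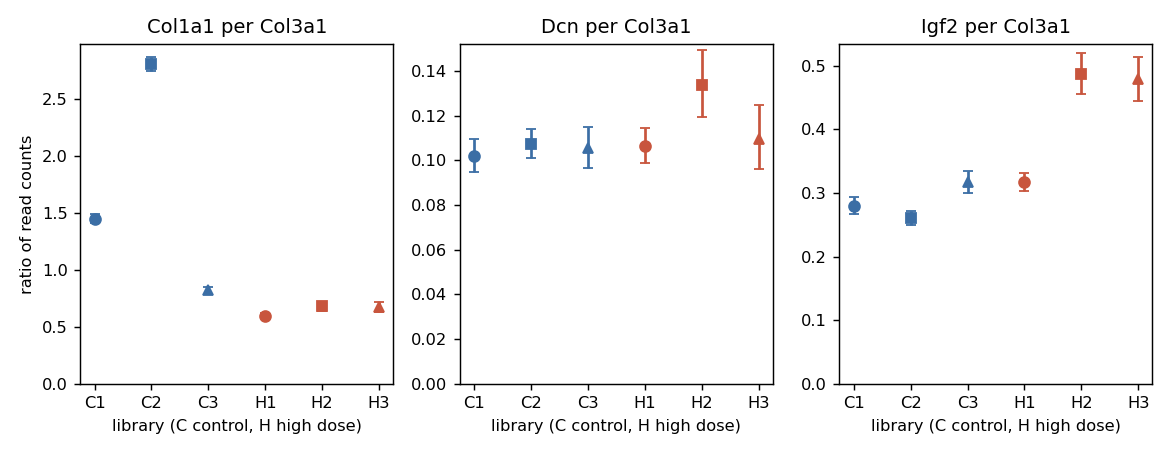
Read counts of Col1a1, Dcn and Igf2 per read count of Col3a1 (y axis, linear from 0) in each library (x axis, C for control and H for high dose, by replicate number), with exact 95% intervals of counting error. Dcn per Col3a1 stays between 0.102 and 0.134, whereas Col1a1 per Col3a1 reaches 2.81 in control replicate 2 and Igf2 per Col3a1 reaches 0.487 in high-dose replicate 2.

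Library by library, then, transcripts of connective tissue were present in differing amounts. Control replicates 1 and 2 held the most Col1a1, Col3a1, Dcn and Igf2, control replicate 3 held less, and high-dose replicate 2 held the least. The deepest and the shallowest library, high-dose replicates 1 and 3, were adjacent in the order of Col1a1, Col3a1 and Dcn, and the part of depth in that order was not tested. High-dose replicate 2, the library that stood apart over all genes, was the lowest for Col1a1, Col3a1, Dcn and Igf2, and without it their fitted log2 fold changes were -2.72, -1.20, -1.15 and -0.75. Whether these differences reflect the amount of meninges or mesenchyme in the dissected piece was not tested, and dissection and dose cannot be told apart in these 6 libraries.

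**Figure D5:**
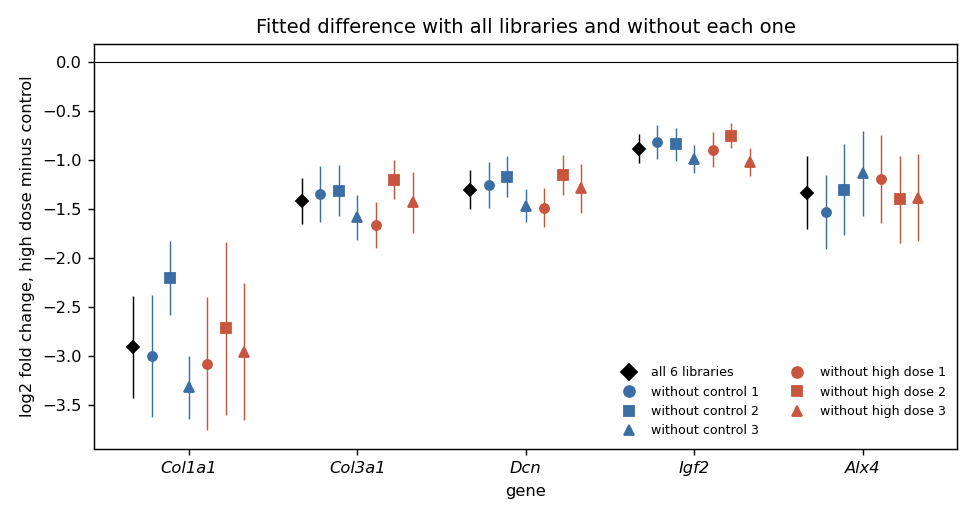
High-dose minus control difference as a fitted log2 fold change (y axis) for each gene (x axis) with all 6 libraries (black diamonds) and without each library in turn (coloured points), with bars of 1 standard error. Every point lies below 0, which leaving out a library could not change, since no high-dose value reached a control value. Col1a1 moves most, being -3.32 when control replicate 3 is left out and -2.20 when control replicate 2 is.

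Other genes followed the same library profile. The profile was taken as the median of the 5 genes' centred log2 CPM, and likeness as Pearson's r over the 6 libraries among genes of at least 10 CPM. The 6 points share the same libraries for every gene, and r is given as a description. The 2 genes most like it were ENSRNOG00000014426 (r = 0.999) and ENSRNOG00000008749 (r = 0.998), which the files do not pair with a symbol. ENSRNOG00000014426 was at 39.3, 43.8 and 29.1 CPM in control replicates 1, 2 and 3 and 18.4, 12.3 and 15.1 CPM in high-dose replicates 1, 2 and 3. Its spread of 3.56-fold was near that of Dcn, and so was the 3.63-fold spread of ENSRNOG00000008749. The 2 genes most opposite were ENSRNOG00000011518 (r = -0.999) and ENSRNOG00000007057 (r = -0.993). Their spread was small, 1.44-fold and 1.47-fold, and ENSRNOG00000011518 had 50.4 to 57.3 CPM in controls against 65.9 to 72.4 CPM at the high dose.

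Reads of overlapping genes are a limit for 3 of the 5. In RefSeq's annotation of GRCr8, Col1a1 overlaps Sgca, Igf2 overlaps Mir483 and LOC102548568, and Dcn overlaps LOC120093566. No source used here states whether the counting used strand, so some reads of such partners may be counted with these genes. Reads that fall in both genes may also have been left uncounted. The counts were made per Ensembl gene on rn6, and whether these partners were among the counted genes was not checked.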

How the data were processed

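The values deposited by the authors are raw counts of reads per Ensembl gene, not normalized. STAR, HTSeq and FastQC and the rn6 build are named in the submitters' processing notes, with versions and strand setting not given in the sources used here. Per the labels' protocols, poly(A) libraries from a strand-marking kit were read as 125-base single-end reads. Columns were tied to samples by the library name in each description. Symbols of the members came with the list of identifiers. The RefSeq gene table held an Ensembl identifier for 0 of 47357 genes, so 11 lists of cell type and pathway genes were not run. The members, lists and tests were chosen with earlier results of these data known.

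The fit was edgeR 4.0.16 (quasi-likelihood, robust, TMM, group as the only term, R 4.3.3) on genes kept by filterByExpr (minimum count 10, minimum total 15), with Benjamini-Hochberg adjustment over all tested genes. Log2 CPM used a prior count of 2. Intervals are 95% Wilson (shares), Poisson (levels) or exact Clopper-Pearson (ratios), and cover counting error only, because they are computed from read counts of single libraries. They treat reads as independent molecules. Reads without molecular identifiers need not be, so the intervals may be too narrow. DESeq2 1.42.0 and limma-voom (limma 3.58.1) were alternatives. The fits were also run on simulated counts with planted changes, as a check of the code. Those counts had no outlying library, so the check does not decide between the tools' numbers of called genes. No 2 libraries of a group agreed within sampling noise (chi-square per degree of freedom 6.09 to 27.4). Genes beside the members were named by a fixed rule: the 2 most like and the 2 most opposite in library profile.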

Additional observations from a re-analysis of the deposited data

How the results depend on the processing

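All 5 genes were lower at the high dose in every alternative fit that kept them, 15 fits for Col1a1, Col3a1, Dcn and Igf2 and 14 for Alx4, which a filter of 1 CPM in 3 libraries removed. For each gene every high-dose value lay below every control value, so leaving libraries out could not reverse the sign. The shared direction is therefore no support, and only the size of the change was open to these fits. The log2 fold change ran from -3.32 to -2.20 for Col1a1, from -1.66 to -1.20 for Col3a1, from -1.48 to -1.15 for Dcn, from -1.02 to -0.75 for Igf2 and from -1.53 to -0.95 for Alx4. The value of -0.95 came after thinning all libraries to 10525138 counts, which leaves Alx4 fewer reads. The ratio of highest to lowest library stayed within its counting interval under raw totals, RLE factors and thinning for all 5 genes. The TMM factors ran only from 0.9856 to 1.012, so raw totals could move the ratio little. For Alx4 the interval was wide, 1.75 to 8.30, and its ratio fell from 3.72 to 2.55 after thinning.

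Over all genes, 1 gene was called (0 higher, 1 lower). The count was 198 under DESeq2 (58 higher, 140 lower), 26 when genes of low count were kept (4 higher, 22 lower), 3 after thinning (3 lower), 0 with a replicate block, and between 0 and 24 with single libraries left out (0 to 5 higher, 0 to 24 lower). It was 412 (158 higher, 254 lower) without both control replicate 3 and high-dose replicate 2, an alternative chosen after seeing the data. The cause was not tested. Same-numbered libraries deviated from their group means with correlations of 0.227, -0.275 and -0.21. The labels do not say whether the numbers pair libraries, and with 3 libraries per group these values cannot settle it. With the replicate block the log2 fold changes of Col1a1, Col3a1, Dcn, Igf2 and Alx4 were -2.63, -1.44, -1.30, -0.89 and -1.25.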

Other observations

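Wide spread between libraries was not limited to genes that were low at the high dose. Outside the 5 genes, the 50 most widely spread genes with a mean of at least 10 CPM had a highest-to-lowest ratio of 3.66 or more. In 11 of these 50 all high-dose values lay below all controls, as for all 5 genes, and in 6 they lay above. Of all tested genes, at any level, 6.52% lay below in this way, and the share that lay above was not counted. Control replicate 2 was highest and high-dose replicate 2 lowest, as in Col1a1, Col3a1 and Dcn, in 7 of the 50. The share of all genes with that order was not counted. High-dose replicate 2 was the highest library in 16 of the 50 and the lowest in 13. Over all 9750 such genes it was highest in 28.7% and lowest in 25.6%.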
